A study of Mus musculus with 8 samples.

Results

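Sites of open chromatin that lay inside genes and were found in every library formed the subject here, in conventional dendritic cells of mouse spleen. Chromatin accessibility had been mapped by ATAC-seq, in which a transposase cuts open DNA, and each library was deposited as a list of summits, the points of highest signal of its called peaks. The lists of all 8 libraries were cut to the length of the shortest, so that the lowest-scoring summits of longer lists were dropped, and summits within 250 bp of each other were chained into sites. A site was called constitutive when all 8 lists had a summit in it, and inside a gene when its midpoint lay within the span of a protein-coding gene and more than 1 kb from the start or end of any such gene. The rule gave 11297 constitutive sites inside genes, out of 112443 sites in all and 29645 constitutive sites. Another 9219 constitutive sites lay within 1 kb of a gene start or end, here called gene ends, and 9129 lay between genes. The sites were thus chosen by the score that put a summit of each library above the cut, and their presence in the 8 lists is a description that was not tested.

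The libraries came from type 2 (cDC2) and type 1 (cDC1) conventional dendritic cells, 2 libraries from each genotype. The cells were sorted from spleen as lineage-negative CD11c+ MHCII+ CD64- cells, cDC2 as XCR1- CD11b+ and cDC1 as XCR1+ CD11b-. The mice labelled KO carried HDAC1 Mx1-Cre and those labelled WT were HDAC1 floxed, with a conditional Hdac1 allele. Mx1-Cre is driven by an interferon-responsive promoter that is active in blood cells and in many other tissues, so the deletion is not limited to dendritic cells. Poly I:C, a double-stranded RNA mimic that induces interferon, had been given to both genotypes 2 weeks before the sort. The labels name neither the strain, sex nor age of the mice and do not say whether the 2 libraries of a group came from separate mice, so p-values measure the spread between these libraries, which may be technical.

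Most open sites inside genes lie away from promoters, and many such sites are enhancers, stretches bound by transcription factors that raise transcription of the same gene or of a neighbouring gene. Others are internal promoters, from which shorter transcripts of the gene or long noncoding RNAs start, or sites bound by CTCF, a protein that shapes chromatin loops. HDAC1 removes acetyl groups from histones as the enzyme of several corepressor complexes. cDC1 present antigen of dead cells to CD8 T cells and depend on Irf8 and Batf3, while cDC2 mainly present to CD4 T cells and depend on Irf4.

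The deposited lists held 69025 and 78296 summits in KO cDC2, 66609 in WT cDC2 library 1, 74963 and 96031 in KO cDC1, and 76022 and 77585 in WT cDC1, while WT cDC2 library 2 had the shortest list and set the length kept. Read depth is unknown, because the lists hold no reads. The score of the last summit kept ranged from 1.31 in WT cDC2 library 2 to 7.21 in KO cDC1 library 2, whose list was the longest. Within 10 kb of the spans of the 5 cDC2 markers (Itgam, Sirpa, Clec4a4, Cd4 and Irf4) there were 24 to 29 summits per cDC2 library and 18 to 22 per cDC1 library. Over the 5 cDC1 markers (Xcr1, Clec9a, Cd8a, Cadm1 and Irf8) there were 24 to 27 summits per cDC2 library and 38 to 44 per cDC1 library. Of these, Cd8a had 0 in each cDC2 library against 4 to 6 in cDC1, Cadm1 had 11 to 15 against 23 to 27, and Irf8 had 2 to 4 against 4 to 8. Clec9a went the other way, with 6 or 7 in cDC2 against 4 to 6 in cDC1, and Xcr1 had 1 to 3 in cDC2 and 2 in each cDC1 library. Within 10 kb of Hdac1 itself every library had 3 to 5 summits, in KO as in WT, and the lists cannot show a deletion inside the gene. Hdac1 held no constitutive site by the rule.

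Sequences of the sites themselves need a genome, which was not used here. Where a constitutive site inside a gene lay within 250 bp of a transcript start listed by RefSeq, the promoter at that start could be shown. The 7 below belong to the 3 highest sites of this kind (Cast, Aktip and Osbpl2), the 2 with the largest gain in cDC2 over cDC1 (in Nfix and Mical3) and the 2 with the largest deficit (in Hgd and Specc1). Each is the 250 bases before the start, from RefSeq on GRCm38.p6, written 5′ to 3′ on the strand of the transcript, and capitals mark matches, on either strand, to the 5 motifs searched, which here were the AP-1 motif TGANTCA and the ETS-IRF motif GAANNGAAA.
Cast, chr13:74770737-74770986, - strand: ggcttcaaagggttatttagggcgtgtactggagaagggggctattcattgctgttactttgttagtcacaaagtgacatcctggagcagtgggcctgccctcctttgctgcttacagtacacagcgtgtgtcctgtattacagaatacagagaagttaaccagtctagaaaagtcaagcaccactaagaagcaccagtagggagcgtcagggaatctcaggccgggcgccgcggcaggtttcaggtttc
Aktip, chr8:91134028-91134277, - strand: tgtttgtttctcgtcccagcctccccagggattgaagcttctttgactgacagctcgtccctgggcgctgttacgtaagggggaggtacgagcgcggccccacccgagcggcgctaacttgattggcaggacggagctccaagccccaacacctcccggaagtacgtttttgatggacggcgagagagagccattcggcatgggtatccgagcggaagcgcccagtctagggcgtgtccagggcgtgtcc
Osbpl2, chr2:180119056-180119305, + strand: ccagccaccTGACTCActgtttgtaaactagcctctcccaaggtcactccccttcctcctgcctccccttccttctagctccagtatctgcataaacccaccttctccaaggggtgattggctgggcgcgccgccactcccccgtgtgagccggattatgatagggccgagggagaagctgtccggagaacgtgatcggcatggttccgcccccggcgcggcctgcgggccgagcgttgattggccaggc
G430095P16Rik in Nfix, chr8:84722807-84723056, + strand: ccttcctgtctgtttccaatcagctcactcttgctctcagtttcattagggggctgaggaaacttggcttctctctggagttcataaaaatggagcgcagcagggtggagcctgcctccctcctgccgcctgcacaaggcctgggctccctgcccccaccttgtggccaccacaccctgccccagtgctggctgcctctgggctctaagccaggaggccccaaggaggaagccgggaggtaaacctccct
Gm4651 in Mical3, chr6:121064214-121064463, + strand: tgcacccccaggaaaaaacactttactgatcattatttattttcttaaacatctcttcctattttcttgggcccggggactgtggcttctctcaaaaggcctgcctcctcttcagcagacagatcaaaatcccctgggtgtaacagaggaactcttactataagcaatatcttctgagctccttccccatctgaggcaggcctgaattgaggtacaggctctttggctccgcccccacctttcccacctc
Gm46559 in Hgd, chr16:37597632-37597881, - strand: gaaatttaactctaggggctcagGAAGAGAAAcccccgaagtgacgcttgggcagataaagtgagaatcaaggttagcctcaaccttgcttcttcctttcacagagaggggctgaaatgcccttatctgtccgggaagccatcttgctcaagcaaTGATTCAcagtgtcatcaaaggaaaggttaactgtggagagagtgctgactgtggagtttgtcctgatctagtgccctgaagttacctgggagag
Specc1, chr11:62076774-62077023, + strand: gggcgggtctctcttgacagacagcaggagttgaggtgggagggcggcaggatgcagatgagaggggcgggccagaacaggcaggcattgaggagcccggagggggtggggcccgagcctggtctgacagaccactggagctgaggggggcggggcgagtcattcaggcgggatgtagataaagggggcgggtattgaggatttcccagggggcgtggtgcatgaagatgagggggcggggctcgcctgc
The summits of the 8 libraries lay -263 to -61 bases from the start at Aktip, -80 to -39 at Osbpl2, -130 to 10 at the start in Nfix, -118 to 9 at the start in Mical3 and -194 to 69 at Specc1. At Cast and at the start in Hgd they lay past the printed stretch, 36 to 80 and 86 to 127 bases after the start. The start in Nfix is that of the long noncoding RNA G430095P16Rik, the one in Mical3 that of Gm4651 and the one in Hgd that of Gm46559. A match of letters is a description and shows no binding.

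Internal starts of this kind were found at 1002 of the 10926 constitutive sites inside genes on the chromosomes that the start table covers, or 9.17%. Starts on chromosome 18 were not analysed here. Of these sites, 906 lay at the start of a protein-coding gene, 902 of them at a start of the same gene that spanned the site, and 96 at the start of a long noncoding RNA. The share was 1.3% among sites inside genes found in 1 list and 3.69% among those found in 7 lists. It was 69.2% at constitutive gene ends, which include the gene starts, and 3.19% at constitutive sites between genes.

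In the 300-base windows around these internal starts (250 before and 50 after the start), the median GC content was 61.5% and the median number of CpG pairs was 20. At starts of constitutive gene ends the medians were 62% and 23, and over all 32851 listed starts they were 52.7% and 7. The PU.1 or ETS motif GAGGAAGT was found, on either strand, in 4.69% of the internal windows and in 3.20% of all windows. The CTCF core AGNGGGCNC stood in 11.2% of the internal windows and in 6.52% of all windows. For AP-1 (TGANTCA) the shares were 6.09% and 7.81%, for RUNX (TGTGGTT) 2.30% and 5.27%, and for ETS-IRF (GAANNGAAA) 8.28% and 7.52%. In windows at starts of constitutive gene ends the shares were 3.44% for PU.1 or ETS, 10.2% for CTCF, 4.11% for AP-1, 3.64% for RUNX and 5.62% for ETS-IRF. Windows at internal starts were thus close to those of gene ends in GC content, and matches to CTCF letters were more frequent, and those to RUNX letters less frequent, than over all starts in both kinds of window. None of these shares was tested.

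**Figure D1:**
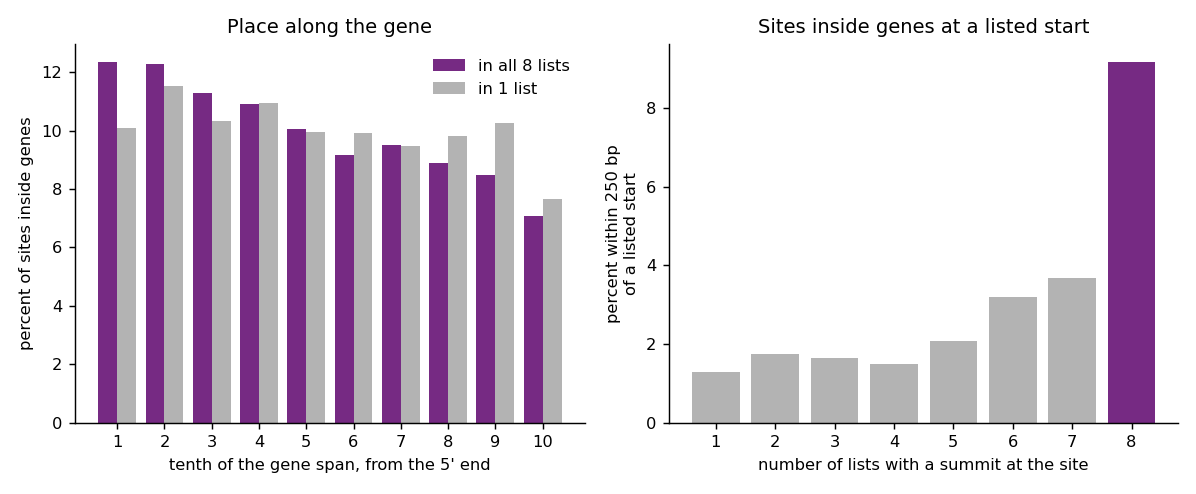
Left, percent of sites inside genes (y axis) in each 10% of the gene span from the 5′ end (x axis), for constitutive sites (purple) and for sites found in 1 list (grey). Right, percent of sites inside genes that lie within 250 bp of a listed start (y axis) by the number of lists with a summit (x axis), 9.17% for constitutive sites against 1.3% to 3.69% for the others.

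Constitutive sites were spread over 5562 of the 21887 protein-coding genes. Of these genes 3213 held 1 site, 1885 held 2 to 4, and 464 held 5 or more, which together held 3251 sites. Genes with a site had a median length of 50.0 kb, against 17.2 kb over all protein-coding genes, and 602 of the 990 genes longer than 200 kb held one. Along 9062 sites whose gene has a strand in the start table, 12.3% lay in the first 10% of the gene span and 7.08% in the last. Among 10690 sites found in 1 list the shares were 10.1% and 7.66%. The median distance from a constitutive site to the nearest gene start or end was 16340 bp (quartiles 5978 and 40253 bp).

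Among the genes with the most sites, Foxp1 led with 30 constitutive sites out of 107 sites in all. It encodes a forkhead transcription factor and spans 597 kb. Pde4d, a phosphodiesterase that breaks down cyclic AMP, had 21. Lpp, an adhesion protein of the LIM family, had 19, and Sgms1, which makes sphingomyelin, had 18. Prkce, a protein kinase C, and Gse1 had 17 each, while Zmiz1, a transcriptional coregulator, and Rad51b, a DNA repair protein, had 16 each. Bach2, a transcriptional repressor of lymphoid and myeloid cells, had 15. Mical3, of a family of actin-oxidising enzymes, had 14, as had Snx29 and Zfhx3. Per length the order was another: Zmiz1 had 7.66 sites per 100 kb, Foxp1 5.02 and Pde4d 1.61. In Mical3 and in Zmiz1 40% of the sites found in any list were constitutive, in Foxp1 28.0% and in Pde4d 24.7%. Over all sites inside genes the share was 21.6%. These genes were picked for their number of constitutive sites, which favours a high share.

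Height was measured as a rank percentile, where 100 is the summit with the highest score of a library's list. Scores rise with depth, while ranks in lists of equal length share 1 scale. Whether ranks also vary with depth was not tested. Per library the median site inside genes stood at 68.0 and 68.1 in KO cDC2, 68.8 and 68.3 in WT cDC2, 66.5 and 66.0 in KO cDC1, and 66.7 and 66.8 in WT cDC1. Gene ends stood at 85.9 to 89.5 and sites between genes at 64.2 to 67.4. Sites inside genes were therefore lower than gene ends in 8 of 8 libraries, by 20.5 ± 2.24 percentile points (SD, n = 8). They were higher than sites between genes in 8 of 8 libraries, by 1.60 ± 0.525 points (SD, n = 8). That order was lost when sites at a listed start were left aside inside genes only, as given next. Both differences are descriptions without a test, since the rule chose sites by the same ranks.

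The sites at an internal start stood apart from the others inside genes. Their median was 84.9 and 85.3 in KO cDC2, 82.8 and 82.6 in WT cDC2, 86.9 and 86.7 in KO cDC1, and 85.0 and 84.1 in WT cDC1. Sites inside genes with no listed start within 250 bp stood at 64.2 to 67.3. The sites at internal starts were thus near the height of gene ends in every library. The remaining sites inside genes were higher than sites between genes in 4 libraries and lower in 4. The sites between genes kept their 281 sites at a listed start and those on chromosome 18, so these groups were not filtered alike. Among all constitutive sites inside genes, 396 stood in the top 10% of all 8 lists, against 2620 gene ends and 176 sites between genes.

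**Figure D2:**
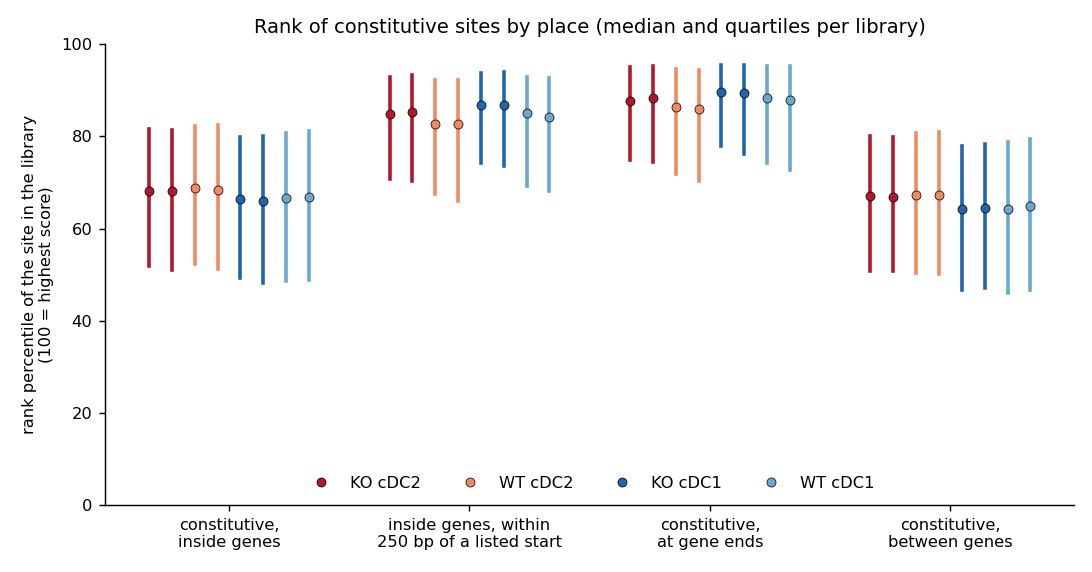
Rank percentile (y axis, 100 = highest score) of 11297 constitutive sites inside genes, of the 1002 among them at a listed start, of 9219 gene ends and of 9129 sites between genes (x axis), with 1 point (median) and 1 line (quartiles) per library, KO cDC2, WT cDC2, KO cDC1 and WT cDC1 from left to right. Sites at a listed start lie between 82.6 and 86.9, near gene ends and above the other sites inside genes.

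The chaining rule itself keeps the summits of a site close together. The best summits of a site spanned a median of 98 bp (quartiles 68 and 138), against 97 bp at gene ends and 99 bp between genes. In 96.8% of the sites each list had exactly 1 summit. The 8 percentiles of a site spanned a median of 32.6 points, against 33.5 points between genes and 11.4 points at gene ends. The median SD between libraries of a group was 6.61 points, against 6.98 points between genes and 2.47 points at gene ends. Ranks were thus about as uneven inside genes as between them. Gene ends stood nearer the top of a scale that ends at 100, and the part of this in their smaller spread was not tested.

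The highest sites inside genes stood in the top 1% of every list. Uggt2, a glucosyltransferase that checks glycoprotein folding, held the highest (chr14:119007580-119007603), at 99.94 or more in all 8 libraries. Cast, the calpain inhibitor calpastatin, held the next at an internal start (chr13:74770656-74770700), with 99.95, 99.94, 99.92 and 99.91 in cDC2 and 99.74, 99.91, 99.90 and 99.97 in cDC1, in the order KO 1, KO 2, WT 1 and WT 2. Those in Zfp446, a zinc finger gene, in Aktip, which links vesicles to motors, in Osbpl2, a lipid transfer protein, and in Pcmtd1, Dcun1d4, Osgin2 and Snapc3 had mean percentiles above 99. None of these 9 passed the test between subsets described next. The tenth was at Rps6ka2, a kinase of the MAP kinase pathway, with 99.96, 99.88, 99.91 and 99.89 in cDC2 against 99.82, 99.19, 99.44 and 99.41 in cDC1. Its adjusted p of 0.0271 lay between 0.00989 and 0.505 over 13 alternatives, and the call was lost in 7 of them, 6 of which leave out 1 library (KO cDC2 1, WT cDC2 1, WT cDC2 2, KO cDC1 2, WT cDC1 1 or WT cDC1 2).

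The comparison of subsets asked whether sites open in every library were equally high in cDC2 and cDC1. A rank in the list was turned into a normal score, and limma was fitted over all 29645 constitutive sites, with Benjamini-Hochberg adjustment over all of them and a threshold of 0.05. Of the sites inside genes 3385 were called, or 30.0%, against 27.8% of all sites fitted. In cDC2, 2030 stood higher than in cDC1 (17.97%, against 15% of all sites fitted) and 1355 lower (11.99%, against 12.7%). The shares are close to those of all constitutive sites. In sorted bulk cells, fewer cells with a site open and less cutting per cell cannot be told apart. The libraries of the subsets did not overlap at 3021 sites inside genes, or 26.7%, against 25.1% of all sites fitted, and 2499 of these were called. The median difference, cDC2 minus cDC1, was 22.7 percentile points in the sites called higher and -24.5 points in those called lower. By more than 40 points, 160 were called higher and 174 lower. The same count was not made over all sites fitted, so large differences cannot be called particular to sites inside genes.

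Which direction prevailed depended on the length of the lists. In lists of equal length 59.97% of the called sites inside genes were higher in cDC2, while with all deposited summits, in lists of unequal length, it was 39.5% (1398 higher and 2144 lower). The same held for the median site. Per library it averaged 68.3 ± 0.353 in cDC2 and 66.5 ± 0.357 in cDC1 (SD, n = 4 each), a difference of 1.84 points (two-sided exact permutation test, p = 0.028571, the smallest it can give), and with all deposited summits the difference was -2.38 points (exact permutation p = 0.314). The rule chose sites by the same ranks, so these p-values are given as descriptions. The shift was not particular to sites inside genes. Medians between genes were 66.9 to 67.4 in cDC2 and 64.2 to 64.9 in cDC1. At gene ends they were 85.9 to 88.2 in cDC2 and 87.8 to 89.5 in cDC1, the other way. The deposited lists were shorter in 3 of 4 cDC2 libraries than in any cDC1 library.

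The split by direction was also counted by place, in lists of equal length and with no test between places. At internal starts 228 of 1002 sites were called (22.8%, against 27.8% of all sites fitted), 89 higher in cDC2 and 139 lower. Away from listed starts 3045 of 9924 were called (30.7%), 1862 higher and 1183 lower. Gene ends had 726 higher (7.88%) and 1418 lower (15.4%), and sites between genes 1701 higher (18.6%) and 999 lower (10.9%). Of all sites fitted 15% were called higher and 12.7% lower. Windows at internal starts called higher in cDC2 had a median GC content of 55% and 11 CpG pairs, and those called lower 65.7% and 25. Whether base composition has a part in these differences was not tested.

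**Figure D3:**
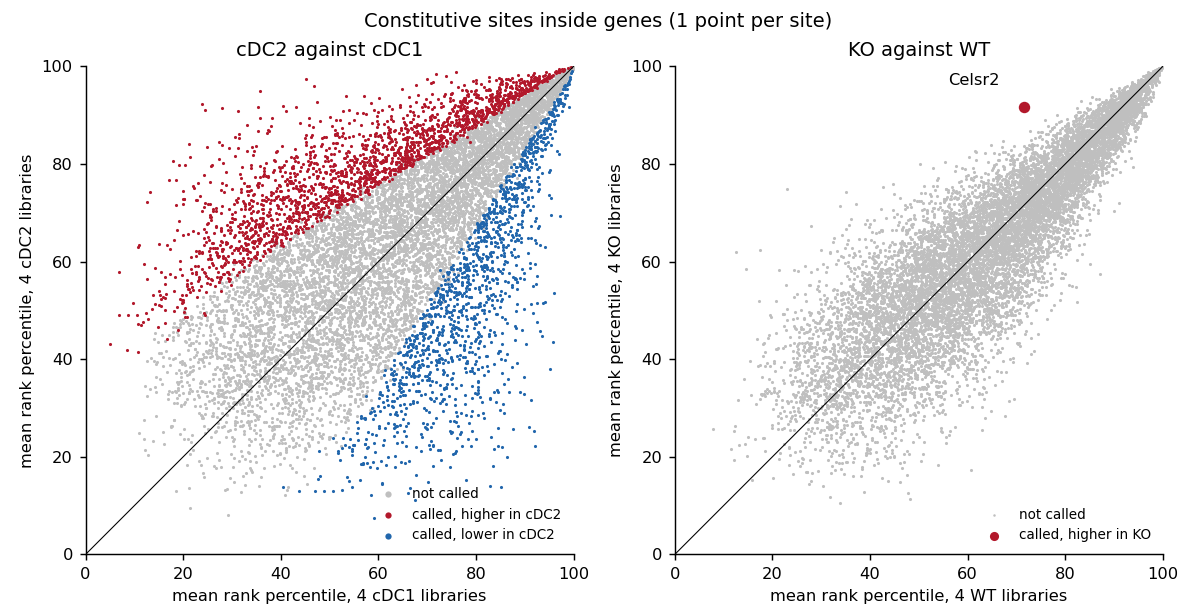
Mean rank percentile of each constitutive site inside a gene, left in 4 cDC2 libraries (y axis) against 4 cDC1 libraries (x axis) and right in 4 KO libraries (y axis) against 4 WT libraries (x axis). Red and blue points were called higher or lower by limma, 2030 and 1355 on the left, and on the right the single call is Celsr2.

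The largest gain in cDC2 was at Hlcs, the enzyme that attaches biotin to carboxylases (chr16:94185516-94185687). It stood at 90.5, 93.5, 93.1 and 92.4 in cDC2, against 11.3, 30.3, 33.6 and 20.2 in cDC1 (KO 1, KO 2, WT 1 and WT 2 in each). The difference was 68.5 points (2.18 ± 0.19 SE on the normal score, limma adjusted p = 1.82e-07). All 4 cDC2 libraries were within 4 points of each other and far above the highest cDC1 library. At Dner, a Notch ligand known from neurons (chr1:84406985-84407097), the values were 89.7, 89.1, 92.1 and 93.7 in cDC2 against 0.685, 18.2, 32.1 and 46.7 in cDC1 (adjusted p = 2.63e-06). Epha7, an ephrin receptor (chr4:28944415-28944647), stood at 89.8, 95.1, 86.7 and 94.5 in cDC2 against 19.2, 62.5, 26.1 and 3.73 in cDC1 (adjusted p = 5.81e-06). In both genes the cDC1 libraries spread widely while the cDC2 libraries stayed high. Agpat3, an acyltransferase of phospholipid synthesis (chr10:78298180-78298290), had 85.3, 87.4, 84.1 and 79.2 in cDC2 against 16.0, 12.5, 29.7 and 27.0 in cDC1 (adjusted p = 3.9e-06). The remaining sites of this group lay in Cdk17, Atxn7, a subunit of the SAGA coactivator, Larp4b, Acsbg1, Slc2a3, the glucose transporter GLUT3, and Megf11, with differences of 59.6 to 62.7 points and libraries that did not overlap.

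The largest deficit in cDC2 was at Vkorc1l1, a vitamin K epoxide reductase (chr5:129985075-129985228). It stood at 34.7, 18.2, 0.544 and 2.10 in cDC2, against 85.4, 84.4, 87.3 and 83.2 in cDC1. The difference was -71.2 points (-2.51 ± 0.27 SE on the normal score, limma adjusted p = 2.24e-06). The cDC1 libraries agreed within 5 points, and the KO cDC2 libraries were above the WT cDC2 libraries. At Dlg2, a scaffold protein of synapses (chr7:92165132-92165355), the values were 2.86, 18.7, 34.6 and 33.1 in cDC2 against 89.9, 95.2, 90.8 and 92.3 in cDC1 (adjusted p = 3.47e-07). Bcl2l14, of the BCL2 family (chr6:134433422-134433492), stood at 1.04, 9.41, 21.8 and 23.8 in cDC2 against 72.4, 83.1, 88.1 and 88.1 in cDC1 (adjusted p = 6.68e-06). At both sites the cDC2 libraries were all in the lower part of their lists. Farp2, a FERM domain protein (chr1:93525488-93525787), had 31.0, 36.8, 0.544 and 11.5 in cDC2 against 88.2, 77.2, 90.3 and 89.6 in cDC1 (adjusted p = 5.97e-06). The others were at Cdkal1, a tRNA modifying enzyme, Arhgap22, a GTPase-activating protein for Rac, Hc, the complement component C5, Sdccag8, a centrosome protein, and Slc7a8, an amino acid transporter, with differences of -66.6 to -62.3 points and libraries that did not overlap.

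**Figure D4:**
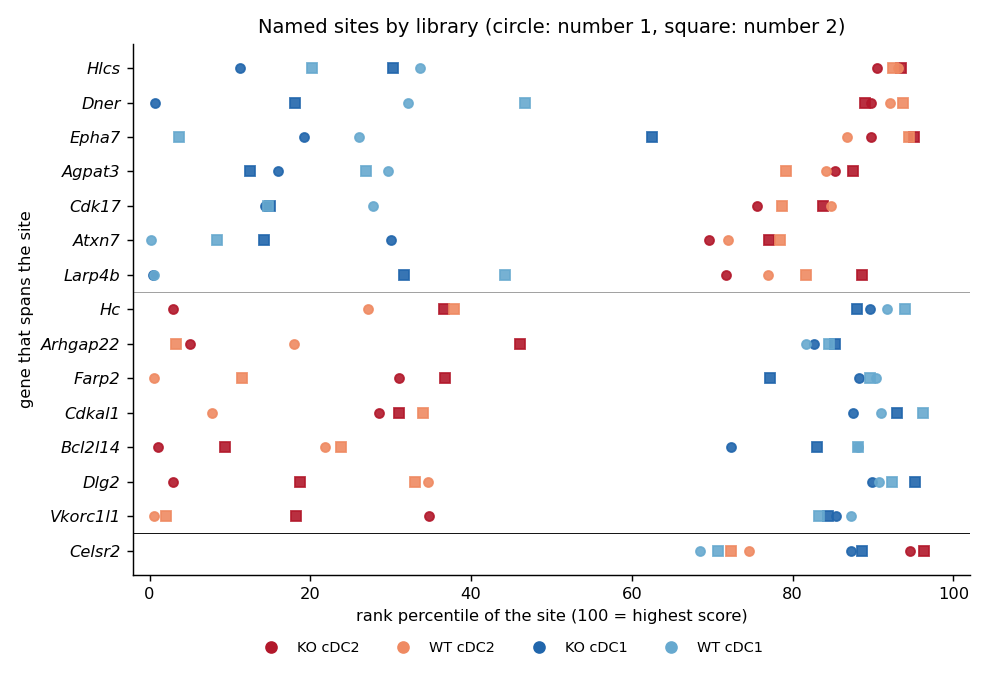
Rank percentile (x axis) in each library at the 7 sites with the largest gain in cDC2 (top), the 7 with the largest deficit (middle) and the 1 site called between KO and WT (bottom), by the gene that spans them (y axis), with circles for library 1 and squares for library 2 of each group. No cDC2 point overlaps a cDC1 point at the 14 sites between subsets, while at Celsr2 the 4 KO points lie above the 4 WT points.

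Of the sites at internal starts, the one in Nfix, a nuclear factor I gene (chr8:84722927-84723067), stood at 78.5, 64.6, 74.8 and 72.6 in cDC2 against 32.0, 50.3, 5.65 and 2.87 in cDC1. The difference was 49.9 points (limma adjusted p = 0.000201). At the start in Mical3 (chr6:121064346-121064473) the values were 83.9, 60.9, 78.8 and 73.8 in cDC2 against 56.5, 7.63, 25.04 and 23.96 in cDC1 (adjusted p = 0.00191). H2-DMb2, a chain of the DM molecule that loads peptides on MHC class II (chr17:34145142-34145233), stood at 85.5, 68.4, 83.8 and 81.6 in cDC2 against 62.1, 36.7, 49.4 and 34.9 in cDC1 (adjusted p = 0.00113). In these 3 genes the lowest cDC2 library was above the highest cDC1 library, by a few points in Mical3. Chn1, a GTPase-activating protein for Rac, and Klhl3, a ubiquitin ligase adaptor, differed by 39.98 and 36.8 points.

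The start in Hgd, an enzyme of tyrosine breakdown (chr16:37597504-37597545), showed the opposite. It stood at 68.9, 42.0, 27.2 and 36.3 in cDC2 against 95.4, 97.7, 95.1 and 95.2 in cDC1, a difference of -52.2 points (limma adjusted p = 6.29e-08). Specc1, a cytoskeletal protein (chr11:62076830-62077093), had 54.9, 26.4, 29.6 and 25.8 in cDC2 against 80.8, 81.0, 66.2 and 66.0 in cDC1 (adjusted p = 0.00123). Rnf144b, a ubiquitin ligase (chr13:47193796-47193919), had 47.7, 40.7, 33.1 and 40.8 in cDC2 against 74.6, 84.1, 73.4 and 72.2 in cDC1 (adjusted p = 0.000923). In each of the 3 all cDC1 libraries were above all cDC2 libraries. P2ry14, a receptor for UDP-glucose, and Atp10a, a lipid flippase, differed by -34.6 and -33.9 points. Their calls were lost when certain single libraries were left out. Over 13 alternatives the adjusted p ranged up to 0.063 at P2ry14, which lost the call without WT cDC1 library 1, and up to 0.113 at Atp10a, which lost it without KO cDC2 1, KO cDC1 1, KO cDC1 2, WT cDC1 1 or WT cDC1 2.

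One gene could hold sites that moved in opposite directions. Called sites lay in 2403 genes, 632 genes held 2 or more, and in 332 of these at least 1 site was higher in cDC2 and at least 1 lower. Of all called sites inside genes 59.97% were higher and the rest lower, so 2 unrelated called sites would often differ in direction. Whether the 332 genes differ from that was not tested. Foxp1 held both directions along its length. Of its 30 sites 4 were called higher in cDC2, at 36.3, 148, 281 and 525 kb from the 5′ end of the gene, by 23.1, 32.6, 15.8 and 39.1 points. Another 4 were called lower, at 178, 261, 444.5 and 469 kb, by -32.4, -28.8, -33.3 and -20.9 points. The site at 148 kb (chr6:99375115-99375194) had means of 66.7 in cDC2 and 34.2 in cDC1, and that at 178 kb (chr6:99344456-99344568) had 23.5 in cDC2 and 55.9 in cDC1. Over 13 alternatives the calls at 281 and 525 kb were kept (adjusted p up to 0.0248 and 0.0383) and the other 6 were lost without single libraries. The call at 36.3 kb was lost without KO cDC2 1, WT cDC2 2 or KO cDC1 2 and with no variance trend (up to 0.0837), and that at 148 kb without KO cDC2 2 or WT cDC1 1 (up to 0.0537). Of the lower sites, that at 178 kb lost its call without KO cDC1 1, WT cDC1 1 or WT cDC1 2 (up to 0.0965), and that at 261 kb without KO cDC2 1, WT cDC2 2, KO cDC1 2 or WT cDC1 2 (up to 0.128). The one at 444.5 kb lost it without KO cDC2 1, KO cDC1 1 or WT cDC1 2 (up to 0.0614), and the one at 469 kb without KO cDC2 2, WT cDC2 2, KO cDC1 2 or WT cDC1 1 (up to 0.0779). On the lower side all 4 calls were thus lost when any 1 of several libraries was left out. The opposite directions within Foxp1 are therefore not secure at this threshold. Among the other genes rich in sites, Zmiz1 had 6 called higher and 1 lower, Lpp 5 and 1, Mical3 5 and 0, Bach2 4 and 1, Prkce 4 and 2, Pde4d 4 and 3, Sgms1 1 and 2, and Gse1 and Rad51b 1 and 1 each.

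**Figure D5:**
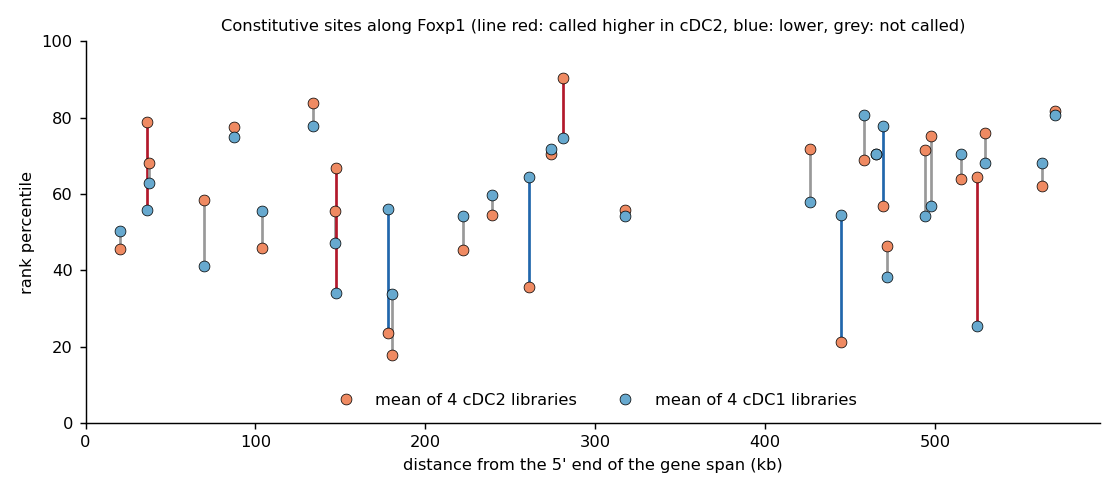
Mean rank percentile (y axis) in 4 cDC2 libraries (orange) and 4 cDC1 libraries (blue) of the 30 constitutive sites along Foxp1, by distance in kb from the 5′ end of the gene span (x axis). Red lines join the 4 sites called higher in cDC2 and blue lines the 4 called lower, which are interspersed along the gene.

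Sites in genes of cDC1 identity were often called. Among 25 such genes 9 held 26 constitutive sites, of which 5 were called higher in cDC2 and 11 lower, together 61.5% against 27.8% of all sites fitted, with a median difference of -3.86 points against 0.409 points over all sites fitted. In Itgae, the integrin chain CD103 (chr11:73128598-73128677), 1 site stood at 38.7, 54.8, 4.35 and 2.02 in cDC2 against 60.7, 76.5, 82.9 and 79.5 in cDC1 (limma adjusted p = 9.39e-05). Ly75, the uptake receptor DEC-205, had 3 of 4 sites lower in cDC2, the largest (chr2:60370346-60370457) at 38.2, 2.40, 23.1 and 29.7 in cDC2 against 78.4, 62.0, 66.7 and 75.8 in cDC1 (adjusted p = 0.00203). At these 2 sites every cDC2 library was below every cDC1 library, while the other site of Itgae and the fourth of Ly75 were not called. Wdfy4, needed for cross-presentation, had 2 sites lower and 1 higher in cDC2. Cd36, a scavenger receptor, went the other way, with 3 of 5 sites higher in cDC2, the largest (chr5:17839755-17839832) at 58.0, 78.1, 75.9 and 78.4 in cDC2 against 25.5, 45.7, 43.5 and 31.8 in cDC1 (adjusted p = 0.00274). Both sites of Btla and those called in Cadm1, Clec9a and Nfil3 were lower in cDC2, and 1 of 3 in Rab7b was higher. The call in Rab7b was lost, with an adjusted p of up to 0.181, without KO cDC2 1, WT cDC2 1, WT cDC2 2, KO cDC1 2 or WT cDC1 1.

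Genes of cDC2 identity held sites called in both directions. Among 25 genes 15 held 31 sites, 6 called higher in cDC2 and 5 lower (35.5% called, against 27.8% of all sites fitted, median difference 4.64 points). Cx3cr1, a chemokine receptor (chr9:120054972-120055075), stood at 85.8, 88.0, 88.0 and 76.4 in cDC2 against 68.0, 51.8, 66.1 and 63.7 in cDC1 (limma adjusted p = 0.00164). Prdm1, which encodes the repressor Blimp-1 (chr10:44458660-44458740), stood at 93.8, 92.1, 95.8 and 93.0 in cDC2 against 89.6, 87.3, 75.6 and 68.1 in cDC1 (adjusted p = 0.000345). In Rbpj, the DNA-binding partner of Notch, 1 site (chr5:53566628-53566685) was lower in cDC2, with 46.2, 37.1, 42.5 and 54.6 against 81.0, 74.5, 86.3 and 88.5 in cDC1 (adjusted p = 0.000106). Rbpj and Notch2 each had 1 site called higher and 1 lower, and Irf2 had 2 called lower. The calls in Notch2 were lost without KO cDC2 1 or WT cDC2 1 (the higher site, adjusted p up to 0.0797) and without WT cDC1 1 (the lower site, 0.0533). One of the calls in Irf2 (adjusted p = 0.0323) was lost in 7 of 13 alternatives, namely with no variance trend and without KO cDC2 1, WT cDC2 2 or any 1 of the 4 cDC1 libraries (up to 0.155). Of the 30 sites in 10 genes shared by conventional dendritic cells or of MHC class II, 3 were called higher in cDC2 and 2 lower (16.7%, against 27.8% of all sites fitted, median difference -1.18 points). In H2-DMa, another chain of DM, 1 site (chr17:34135450-34135577) had 98.4, 97.4, 98.0 and 95.6 in cDC2 against 96.0, 98.9, 97.9 and 98.9 in cDC1, with overlapping libraries and no call (adjusted p = 0.528).

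Transcription factor genes of dendritic and myeloid cells held 164 sites in 31 of 43 genes, 26 called higher in cDC2 and 20 lower (28.0%, median difference 2.20 points), a share near the 27.8% of all sites fitted. Bach2 had the largest gains, led by chr4:32421736-32421797 at 77.3, 73.4, 84.7 and 91.6 in cDC2 against 44.2, 35.5, 33.4 and 24.0 in cDC1 (limma adjusted p = 3.22e-05). Arid5b, a DNA-binding cofactor of a histone demethylase (chr10:68238921-68239002), had 31.4, 28.5, 61.4 and 40.1 in cDC2 against 71.3, 81.6, 74.3 and 72.0 in cDC1 (adjusted p = 0.00188). The highest site of the group, in Ets1 (chr9:32695954-32696019), did not pass, with 99.3, 99.5, 99.1 and 99.3 in cDC2 against 98.4, 99.1, 98.2 and 98.7 in cDC1 (adjusted p = 0.16). Tcf4, which drives plasmacytoid dendritic cells, had 2 of 9 sites higher in cDC2, and both calls were lost without WT cDC2 1 or WT cDC1 1, the first also without KO cDC2 1 or KO cDC1 2 (adjusted p up to 0.0861 and 0.0744).

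Genes of histone deacetylases and of the complexes that hold HDAC1 had 47 sites in 21 of 36 genes, 6 called higher in cDC2 and 8 lower (29.8%, median difference -2.22 points), again near the 27.8% of all sites fitted. Hdac9, a class IIa deacetylase, held 10 sites with 2 higher, one (chr12:34486101-34486412) at 70.1, 74.4, 59.2 and 76.0 in cDC2 against 41.9, 17.5, 39.5 and 36.4 in cDC1 (limma adjusted p = 0.0042). Rcor3, of the CoREST family (chr1:192101510-192101617), stood at 2.86, 23.8, 63.1 and 27.1 in cDC2 against 70.4, 75.4, 86.5 and 71.5 in cDC1 (adjusted p = 0.000781). Gatad2a, of the NuRD complex, had 2 of 4 sites lower in cDC2. None of the 47 was called between KO and WT. Other chromatin regulators held 81 sites in 27 of 40 genes, 10 called in each direction (24.7%, against 27.8% of all sites fitted). Among them Smarca2, the BRM ATPase (chr19:26747932-26748328), had 88.5, 89.1, 93.0 and 87.9 in cDC2 against 69.6, 54.9, 40.3 and 35.5 in cDC1 (adjusted p = 5.45e-06). Kat6b, a histone acetyltransferase (chr14:21582460-21582548), had 13.4, 58.7, 5.33 and 11.5 in cDC2 against 69.8, 69.8, 70.8 and 74.5 in cDC1 (adjusted p = 0.000933).

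Innate sensing and NF-kB genes held 45 sites in 17 of 40 genes, 8 called higher in cDC2 and 7 lower (33.3%, against 27.8% of all sites fitted). Irak3, an inhibitor of toll-like receptor signalling, had 3 of 4 sites higher in cDC2, one (chr10:120163682-120163733) at 78.4, 88.7, 87.8 and 89.98 in cDC2 against 59.6, 68.8, 61.0 and 48.1 in cDC1 (limma adjusted p = 0.000275). Irak2, which promotes that signalling, had 3 of 7 sites lower. One call in Irak3 was lost with no variance trend and without KO cDC2 1, WT cDC2 2, KO cDC1 2 or WT cDC1 1 (adjusted p up to 0.0985), and 1 in Irak2 without KO cDC1 2 or WT cDC1 1 (up to 0.0655). Interferon-stimulated genes held 6 sites in 5 of 20 matched genes, against 5562 of 21887 over all protein-coding genes. Of these sites 2 were called (33.3%, against 27.8% of all sites fitted). Both sites of Usp18, which limits interferon signalling, were lower in cDC2 (adjusted p = 0.0239 and 0.0461), and these calls were lost in 6 and 8 of 13 alternatives, among them leaving out KO cDC2 2, WT cDC2 2, KO cDC1 1, WT cDC1 1 or WT cDC1 2, and for the second site KO cDC1 2 (adjusted p up to 0.102 and 0.182). The MHC class I and antigen presentation genes held 11 sites in 6 of 22 genes. Of these 1 was called (9.09%, against 27.8% of all sites fitted). It lay in Cybb, an NADPH oxidase subunit, and was lower in cDC2 (limma adjusted p = 0.00164).

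Genes that mark other blood cells also held constitutive sites, and the counts called among them stand against 15% of all sites fitted called higher in cDC2 and 12.7% called lower. Lef1, a transcription factor of T cells, held 1 site with one of the clearest differences (chr3:131208633-131208755), at 97.8, 92.5, 96.0 and 97.6 in cDC2 against 54.9, 35.7, 46.9 and 49.4 in cDC1 (limma adjusted p = 6.29e-08). Over all 16 T cell genes 7 held 9 sites, 2 called higher in cDC2 and 0 lower, the other in Gata3. Of the 12 B cell genes 3 held 5 sites, in Pax5, Blk and Blnk, 3 called higher and 1 lower. Plasmacytoid genes held 25 sites in 7 of 14 genes, 3 called higher and 4 lower, among them Ptprs, a receptor phosphatase (chr17:56468933-56469180), at 53.5, 55.1, 29.8 and 15.2 in cDC2 against 85.3, 83.4, 91.5 and 89.5 in cDC1 (adjusted p = 4e-06). Monocyte, NK cell, granulocyte and erythroid genes held 7, 2, 4 and 3 sites, with 0 called by limma at an adjusted p under 0.05. Housekeeping genes held 5 sites in 4 of 14 genes, 1 called higher, in Sdha, and 1 lower, in Gusb. Several of these calls were lost when 1 library was left out. Gata3 lost its call without WT cDC2 2 or WT cDC1 1, and with no variance trend (limma adjusted p up to 0.112). The call in Blk was lost without KO cDC2 1 or WT cDC2 2 (up to 0.0717). In Pax5 calls were lost without KO cDC1 1 (0.0717) or WT cDC1 1 (0.0523), and in Sdha without WT cDC1 2 (0.0694). Blnk lost its call without KO cDC2 1, WT cDC2 1, KO cDC1 2, WT cDC1 1 or WT cDC1 2 (up to 0.162). Summits within 10 kb of the 14 plasmacytoid genes numbered 80 to 87 per cDC2 library and 70 to 73 per cDC1 library, with 1 gene at 0 throughout. Of these, Runx2 had 21 to 29 in cDC2 against 14 to 21 in cDC1, and Tcf4 21 to 25 against 14 to 21. Pacsin1 (3 against 6 or 7), Cox6a2 (0 or 1 against 2) and Ptprs (7 to 9 against 9 or 10) went the other way. Summits at the 16 T cell genes numbered 48 to 64 per cDC2 library and 48 to 60 per cDC1 library. At the 12 B cell genes they numbered 40 to 51 and 41 to 48, and in neither list was a gene at 0 throughout. The part of other cells in the sorted fractions was not tested.

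Between KO and WT over both subsets, limma called 1 of the 11297 sites inside genes, against 0.00675% of all sites fitted (2 sites). It lay in Celsr2, a cadherin of planar cell polarity (chr3:108401872-108401986). It stood at 94.5 and 96.4 in KO cDC2 against 74.5 and 72.4 in WT cDC2, and at 87.3 and 88.6 in KO cDC1 against 68.5 and 70.8 in WT cDC1. All 4 KO libraries were above all 4 WT libraries, by 20.1 points on average (0.86 ± 0.12 SE on the normal score, adjusted p = 0.0068). Over 13 alternatives the adjusted p ranged from 0.000818 to 0.226. The call was lost on the percentile scale (0.222), without a variance trend (0.226) and without KO cDC1 library 2 (0.0571). Summits at the 16 T cell genes also went with genotype, with 64 and 62 in the KO cDC2 libraries against 54 and 48 in the WT cDC2 libraries, and 60 and 58 in the KO cDC1 libraries against 48 and 51 in the WT cDC1 libraries. For 12 granulocyte genes the sums were 26 and 27 in KO cDC2 against 21 and 17 in WT cDC2. In cDC1 they were 23 and 26 with KO against 20 and 22 with WT. No list of another blood cell type was higher with KO in both subsets. B cell sums, KO against WT, were 40 to 47 against 45 to 51 in cDC2 and 41 to 45 against 46 to 48 in cDC1. Erythroid sums were 16 against 19 and 20 against 19. Monocyte sums were 51 to 57 against 53 to 59 and 61 to 64 against 55 to 58. NK cell sums were 22 to 24 against 18 to 22 and 19 to 20 against 21 to 22. Plasmacytoid sums were 82 to 87 against 80 to 83 and 70 to 71 against 72 to 73. The part of other cells in the KO result was not tested.

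Within cDC1 limma called 0 sites inside genes between KO and WT, against 0.00675% of all sites fitted, with 986 at an unadjusted p under 0.05 (8.73%, against 8.18% of all). Within cDC2 it called 0, against 0% of all sites fitted, with 1034 at an unadjusted p under 0.05 (9.15%, against 8.27% of all). The test of a different KO effect in the 2 subsets also called 0, against 0% of all sites fitted, with 561 at an unadjusted p under 0.05 (4.97%, against 4.43% of all). Over both subsets 1476 sites inside genes had an unadjusted p under 0.05, or 13.1%, against 12.1% of all sites fitted. The count over both subsets was 0 without KO cDC1 library 2, 34 without KO cDC2 library 1 and 10 without KO cDC1 library 1, and 3 or 4 without any other library, so it rests on single libraries. On the log2 score, scaled to the same distribution in every library, 21 were called.

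The median site inside genes averaged 67.1 ± 1.08 in KO and 67.7 ± 1.08 in WT (SD, n = 4 each), a difference of -0.506 points that did not pass the two-sided exact permutation test (p = 0.486). With all deposited summits it was 3.16 points (exact permutation p = 0.229). As the rule chose sites by these ranks, both p-values are given as descriptions. At internal starts, the medians per library given above were higher in both KO libraries than in both WT libraries of the same subset, in cDC2 and in cDC1, and away from listed starts they were lower. Gene ends showed the same as internal starts, with 87.7 and 88.2 in KO cDC2 against 86.4 and 85.9 in WT cDC2, and 89.5 in both KO cDC1 libraries against 88.4 and 87.8 in WT cDC1. The median difference between KO and WT over sites was 1.52 points at internal starts, 0.900 points at gene ends and -0.948 points inside genes away from listed starts. These are descriptions without a test. The KO lists were the longer ones in cDC2 (69025 and 78296 summits against 66609 and the shortest list of all), and in cDC1 they held 74963 and 96031 against 76022 and 77585, and the part of list length was not tested.

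The rule's threshold on rank was narrow at its edge. Ranks are counted from the highest score. Just inside it lay the sites in Slc35f2, whose lowest rank was the last one kept, Zscan22 with 61732, Aqr with 61728, Phlpp1 with 61723 and Rnf141 with 61721. Just outside lay 2 sites in Cacna1d, with ranks of 61746 and 61748 in the missing library, and those in Il4i1 with 61750, Rttn with 61753 and Rfxap with 61754. In all, 3290 sites inside genes were found in 7 lists, and 1565 of them had a deposited summit past the cut in the other library.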

How the data were processed

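ATAC-seq summit lists of 8 libraries were analysed. The authors deposited 1 score per summit, a −log10 p-type value given within each library, on GRCm38 (mm10). Per the submitters' processing notes Bowtie2, SAMtools, MACS2 and MultiQC were used, with settings not given in the sources used here. The score rises with depth and was used only to rank summits.

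Lists were limited to the length of the shortest, chained within 250 bp, and placed on protein-coding gene spans of RefSeq GRCm38.p6. The best summit of a site gave its rank percentile, which was turned into a normal score and fitted with limma 3.58.1 (R 4.3.3, 4 group means, 5 contrasts, variance trend). P-values were Benjamini-Hochberg adjusted over all 29645 sites found in all 8 lists. In simulated data on 29645 sites, with independent normal noise, 100 sites were changed by 0.5 and 100 by 1 normal-score unit. The fit for cDC2 minus cDC1 recovered 36 of 100 changes of 0.5 and 89 of 100 changes of 1, with 11 calls at unchanged sites in the same fit. In the data 27.8% of sites were called, and the adjusted cut depends on the share of sites changed. The simulation therefore does not give the share of real differences that was found.

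Members, 18 gene lists and the naming rule were chosen with earlier results of these data known. Sites are named by the shortest gene spanning them (111 were spanned by more than 1). Named sites are the 10 highest, those in the 10 genes with the most, and the 10 largest called differences in each direction, of which 1 and the results of 1 gene list are not reported here. Of the called sites in the gene lists, some examples are given, chosen after their values were seen, as are those at internal starts. No genome sequence was used, so 300-base RefSeq promoter windows replace the planned windows at each site, and exons and introns were not told apart. No p-values came from gene lists. Alternatives changed list length, chaining, distance, scale, variance model, replicate block and libraries.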

Additional observations from a re-analysis of the deposited data

How the results depend on the processing

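With lists of 50% of that length the sites inside genes numbered 4861 and those called between cDC2 and cDC1 1370; with sites in at least 6 lists fitted, 1882 were called. Leaving out 1 library gave 2352 to 2877 calls. With all deposited summits, in lists of unequal length, the median of sites inside genes differed by -2.38 points between cDC2 and cDC1 and by 3.16 points between KO and WT, both of the opposite sign. Calls between KO and WT over both subsets numbered 2 with all summits, 2 at over 500 bp from a gene end, 0 on the percentile scale, 0 with no variance trend, 21 on the log2 score, and 0 to 34 without 1 library. In cDC1 they numbered 2 with all summits, 2 at over 500 bp, 2 with robust variance and 0 to 36 without 1 library. In cDC2 there was 1 with the shorter lists, with all summits, with chaining at 100 or 500 bp, with at least 6 lists and with robust variance, 6 on the log2 score, and 0 to 25 without 1 library. The difference of KO effects had 0 to 1. For these changes the cause was not tested.

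The main fit did not pair same-numbered libraries. Within a genotype their deviations from the group mean had correlations of 0.151 (KO cDC2 with KO cDC1) and 0.0521 (WT cDC2 with WT cDC1). Across genotypes the correlations were lower, from -0.0151 to 0.0326. Whether same-numbered subsets of a genotype shared a mouse is not known, and these values cannot settle it. With a replicate block of subsets 3886 sites were called (2350 higher in cDC2, 1536 lower), against 3385 with no block, and 0 for the difference of KO effects. With the number as replicate block, calls between KO and WT were 5 over both subsets, 3 in cDC1 and 1 in cDC2.

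Without 1 library the median differences were -21.0 to -20.1 points against gene ends, 1.49 to 1.69 against sites between genes, 1.67 to 1.94 between cDC2 and cDC1 and -0.834 to -0.117 between KO and WT. Of 96 called sites in the named groups and gene lists, 63 kept call and direction in all alternatives on the same sites, 33 lost the call in at least 1 and 0 turned. Depth per library is unknown, and a difference in rank is relative to the rest of a library's list.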

Other observations

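Among microRNA hairpins listed by RefSeq, 8 lay within 250 bp of a constitutive site inside a gene. At Mir6993 in Fads1, a fatty acid desaturase gene, the site stood at 81.5, 80.9, 81.2 and 86.0 in cDC2 against 42.3, 45.9, 21.4 and 46.8 in cDC1 (KO 1, KO 2, WT 1 and WT 2 in each; limma adjusted p = 0.000104). At Mir8090 in Cfap43, a cilium gene, it stood at 71.9, 81.8, 82.5 and 78.5 in cDC2 against 90.7, 89.8, 88.9 and 87.8 in cDC1 (adjusted p = 0.00969). The site at Mir3092 in Fndc3b had 73.9, 70.8, 65.2 and 69.2 in cDC2 against 47.2, 52.0, 48.1 and 46.7 in cDC1 (adjusted p = 0.0284). The libraries of the subsets did not overlap at these 3 of the 8 sites, and the other 5 were not called. Of all sites fitted 27.8% were called and 25.1% did not overlap, and 8 sites are too few to be set against these shares. The hairpins were looked up after the values had been seen.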
